A study of Homo sapiens with 12 samples.

Results

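The genes described are 10 core components of the human Hippo pathway: the kinases LATS1, LATS2, STK3 and STK4, the adaptors SAV1 and NF2, the coactivators YAP1 and WWTR1, and the DNA-binding factors TEAD1 and TEAD4. They were taken by name from a table of 57773 genes, and each name matched a single Ensembl gene identifier. The RNA came from RPE1, an immortalized human cell line derived from retinal pigment epithelium. Anillin is an actin- and septin-binding scaffold of the contractile ring, and cells that lack it often fail to divide after mitosis and keep a doubled genome. Cells received siRNA for 24 h and were stained with a DNA-binding Hoechst dye at 2 µg/mL for 60 min. A cell sorter then separated cells with 4N DNA content from cells with 2N DNA content.

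The 4 groups were cells sorted at 4N after siRNA to Anillin, cells sorted at 2N after siRNA to Anillin, cells sorted at 4N after a non-targeting siRNA, and cells sorted at 2N after a non-targeting siRNA. Below they are called Anillin 4N, Anillin 2N, control 4N and control 2N. Each group had 3 libraries that the submitters describe as biological replicates, 12 libraries in all, of 1 parental line. The sources used here give no siRNA sequence and name no second siRNA to Anillin. In an unsynchronized culture a 4N gate also holds diploid cells that have replicated their DNA, so 4N cells of control cultures are mostly cells in G2 or mitosis. Nothing in the labels separates such cells from tetraploid cells within the Anillin 4N gate.

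In the Hippo pathway, STK3 and STK4 (also called MST2 and MST1), bound to the scaffold SAV1, phosphorylate and activate LATS1 and LATS2, while NF2 (merlin) brings LATS kinases to the plasma membrane. Active LATS kinases phosphorylate YAP1 and its paralogue WWTR1 (TAZ), which are then held in the cytoplasm or degraded. Unphosphorylated YAP1 and WWTR1 enter the nucleus and bind TEAD factors to switch on genes of growth, adhesion and matrix. LATS2 has been linked to the arrest of cells that fail cytokinesis. RNA levels show the amount of message only, and neither the phosphorylation nor the location of these proteins was measured.

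The 12 libraries held between 17412743 and 61760470 reads assigned to genes. ANLN, the siRNA target, had 6.33, 5.47 and 4.48 RPM (reads scaled to a library of 1000000 reads) in Anillin 4N, 5.44, 3.72 and 2.53 RPM in Anillin 2N, 539, 477 and 511 RPM in control 4N and 121, 80.0 and 107 RPM in control 2N. It was lower in every Anillin library than in every control library. Of the defining markers of retinal pigment epithelium, OTX2 averaged 36.8 RPM and MITF 29.8 RPM, while RPE65 averaged 0.831 RPM and TTR was at 0. The summed level of the 10 listed pigment epithelium markers was 74.1 to 81.3 RPM in Anillin 4N, 68.7 to 73.0 RPM in Anillin 2N, 56.8 to 68.3 RPM in control 4N and 64.8 to 76.4 RPM in control 2N. The blood cell markers PTPRC, at a mean of 0.147 RPM, and CD3E and HBB, at 0, were at or near 0, as was the epithelial marker EPCAM at 0.0939 RPM. MYH11, from the same list of markers of other epithelia and muscle as EPCAM, averaged 7.43 RPM. CD68, which macrophages express strongly and many other cells weakly, averaged 40.1 RPM. The library that stood farthest from its group was replicate 2 of control 2N, with a median absolute log2 difference of 0.128 from the other two libraries of its group, against 0.07 to 0.099 for the other 11 libraries.

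The upstream windows of YAP1, LATS2 and WWTR1 are shown because these 3 genes carry most of the differences described below. Each window is the 250 bases before an annotated start in RefSeq on GRCh38.p14, written from 5′ to 3′ on the strand of the gene, and capitals mark the TEAD motif GGAATG. The YAP1 window is chr11:102110197-102110446 on the plus strand, the LATS2 window is chr13:21061587-21061836 on the minus strand, and WWTR1 has 2 windows, the upper at chr3:149703274-149703523 and the lower at chr3:149658026-149658275, both on the minus strand.
YAP1: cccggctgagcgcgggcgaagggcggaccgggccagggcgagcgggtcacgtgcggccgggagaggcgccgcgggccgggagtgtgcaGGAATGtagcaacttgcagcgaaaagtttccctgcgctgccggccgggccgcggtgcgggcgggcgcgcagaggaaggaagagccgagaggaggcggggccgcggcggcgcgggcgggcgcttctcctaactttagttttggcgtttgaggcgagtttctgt
LATS2: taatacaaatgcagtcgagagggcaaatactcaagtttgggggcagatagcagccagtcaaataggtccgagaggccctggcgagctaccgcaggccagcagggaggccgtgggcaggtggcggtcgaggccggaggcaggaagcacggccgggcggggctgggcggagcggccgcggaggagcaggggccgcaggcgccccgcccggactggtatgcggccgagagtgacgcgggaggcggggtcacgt
WWTR1 upper: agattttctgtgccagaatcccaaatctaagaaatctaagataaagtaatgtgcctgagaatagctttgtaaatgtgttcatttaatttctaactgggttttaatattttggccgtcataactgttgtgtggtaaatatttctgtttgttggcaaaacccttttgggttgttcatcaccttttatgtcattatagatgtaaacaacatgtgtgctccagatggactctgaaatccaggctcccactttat
WWTR1 lower: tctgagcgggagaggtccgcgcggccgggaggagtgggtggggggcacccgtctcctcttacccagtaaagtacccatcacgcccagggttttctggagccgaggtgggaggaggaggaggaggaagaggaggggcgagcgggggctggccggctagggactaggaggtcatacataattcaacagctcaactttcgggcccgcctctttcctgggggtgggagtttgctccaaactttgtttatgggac

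The TEAD motif was searched as GGAATG on both strands, CATTCC being the same site read from the other strand. The YAP1 window held it 1 time, 162 bases before the start, and the windows of LATS2 and WWTR1 did not hold it. Of 35116 such windows over all genes, 11.9% held the motif at least 1 time. Upstream windows were found for 7 of the 10 genes, with more than 1 window each for LATS1, NF2 and WWTR1. YAP1 was the only 1 of these 7 genes with the motif. The 11.9% counts windows and not genes, and whether the motif is more frequent in the members was not tested. GC content was 72.0% in the YAP1 window, 69.6% in the LATS2 window, and 35.2% in the upper and 62.0% in the lower WWTR1 window, against a median of 58.0% over all windows.

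YAP1 was the member that differed most after Anillin siRNA. Its level was about the same in both sorted fractions and about 50% lower after Anillin siRNA in each. The gene (ENSG00000137693) lies on the plus strand of chromosome 11 at 102110461 to 102233423 in the GENCODE 29 annotation of GRCh38. YAP1 had 109, 101 and 101 RPM in Anillin 4N, 106, 108 and 107 RPM in Anillin 2N, 227, 226 and 223 RPM in control 4N and 213, 225 and 209 RPM in control 2N. The pseudogene YAP1P1, which could share reads with YAP1, reached 2.93 RPM at most. Every Anillin library was below every control library for YAP1, and the 6 Anillin libraries lay between 101 and 109 RPM. At 4N the log2 change was -1.12 ± 0.05 (standard error), a fall of 53.9%, with an adjusted p of 6.82e-13 by limma with Benjamini-Hochberg adjustment over 19591 genes. At 2N it was -1.01 ± 0.05, a fall of 50.2%, with an adjusted p of 4.31e-11 by limma. The difference between the 2 changes, the interaction of siRNA and DNA content, was -0.11 on the log2 scale with a 95% interval of -0.25 to 0.03 and an adjusted p of 0.272 by limma.

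Among the 19591 genes tested, YAP1 ranked 517 from the lowest at 4N and 186 from the lowest at 2N. Counting YAP1 itself, 177 genes were lower by at least as much as YAP1 in both comparisons and past an adjusted p of 0.05 by limma in both. Of these 177 genes, 7 including YAP1 had a mean of at least the 163 RPM of YAP1. The other 6, named after their values were seen, were TUBA1B, CAV1, TOP2A, MKI67, CENPF and NCAPD2. TOP2A, MKI67 and CENPF belong to the 8 G2 and M phase genes summed below. Of those 8, CCNB1, CDC20 and CDK1 were also among the 177 genes, and AURKA and PLK1 were not. Levels of 8 G2 and M phase genes also differed strongly between the groups: their summed level was 519 to 566 RPM in Anillin 4N, 174 to 181 RPM in Anillin 2N, 3630 to 4060 RPM in control 4N and 483 to 671 RPM in control 2N. For control 4N over control 2N the log2 change of YAP1 was 0.06, with a 95% interval of -0.04 to 0.16 (adjusted p = 0.304 by limma). Whether the difference in YAP1, or any other difference described here, depends on the cell cycle stage of the sorted cells was not tested. In bulk RNA, fewer cells with a message and less message in each cell cannot be told apart.

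WWTR1, the paralogue of YAP1, differed less. The gene (ENSG00000018408) lies on the minus strand of chromosome 3 at 149517235 to 149736714. It had 125, 123 and 128 RPM in Anillin 4N, 131, 134 and 140 RPM in Anillin 2N, 123, 140 and 126 RPM in control 4N and 149, 168 and 155 RPM in control 2N. The 4N groups overlapped, and the Anillin 2N libraries were all below the control 2N libraries. At 4N the log2 change was -0.04 with a 95% interval of -0.16 to 0.07 (adjusted p = 0.526 by limma). At 2N WWTR1 fell by 0.22 on the log2 scale (standard error 0.06, adjusted p = 0.0054 by limma), a change of -14.2%. The interaction was 0.18, with a 95% interval of 0.01 to 0.34 and an adjusted p of 0.133 by limma, so the 2 changes were not shown to differ. It passed the threshold under quantile scaling (0.29, adjusted p = 0.0221 by limma) and without replicate 2 of control 4N (adjusted p = 0.0374 by limma).

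**Figure D1:**
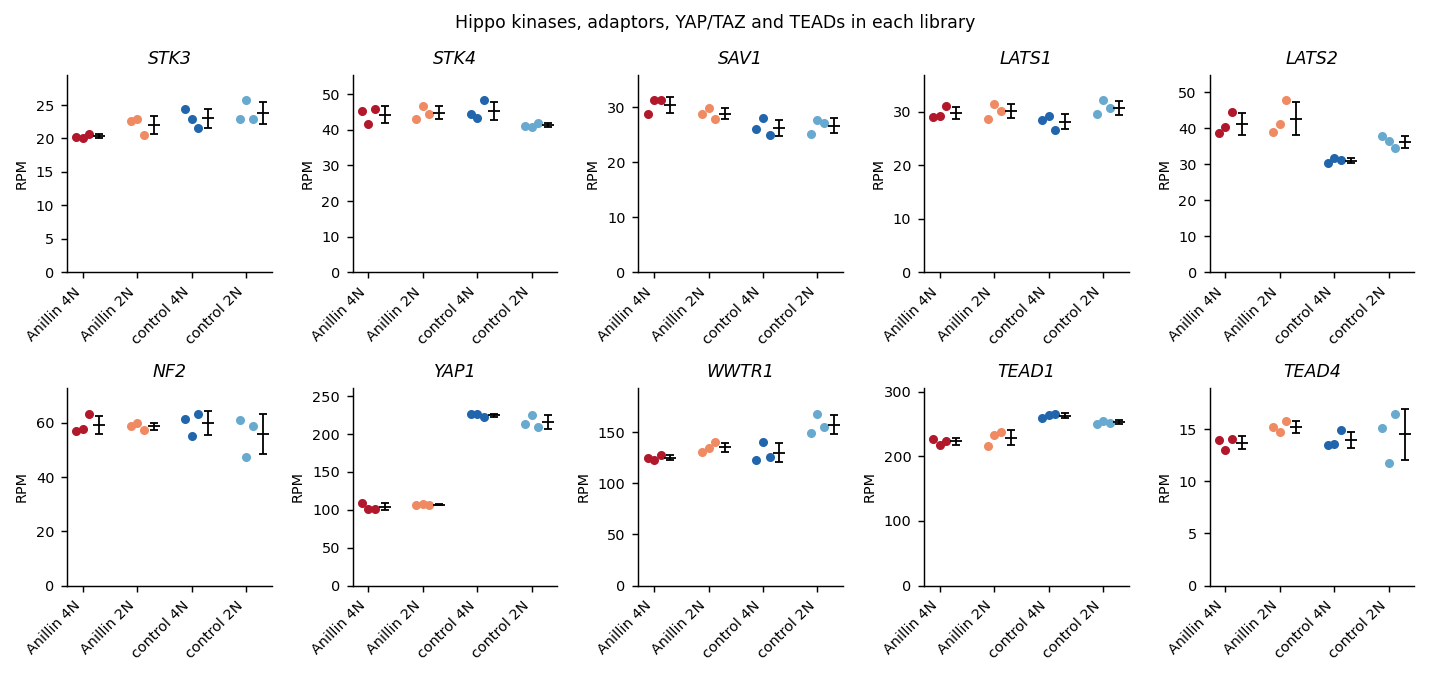
Level of each of the 10 genes in RPM (linear axis from 0) in the 12 libraries; points are libraries and the black marks are the mean ± SD of 3 libraries per group. The YAP1 points of the Anillin groups lie between 101 and 109 RPM, below all control points, and the LATS2 points of Anillin 4N lie above those of control 4N.

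The TEAD factors showed smaller differences. TEAD1 (ENSG00000187079, chromosome 11, 12674591 to 12944483, plus strand) had 226, 217 and 224 RPM in Anillin 4N, 216, 233 and 238 RPM in Anillin 2N, 259, 264 and 266 RPM in control 4N and 250, 255 and 252 RPM in control 2N. Each Anillin library was below each control library. TEAD1 fell by 0.24 on the log2 scale at 4N (standard error 0.05, adjusted p = 0.000268 by limma), a change of -15.3%, and by 0.14 at 2N (standard error 0.05, adjusted p = 0.0288 by limma), a change of -9.31%. The 4N call was lost under quantile scaling (-0.06, adjusted p = 0.232 by limma), and the 2N call was lost in 7 of 13 other settings, among them the fits without replicate 1 of Anillin 2N and without each control 2N library (adjusted p of 0.0527 to 0.142 by limma in these 7). TEAD4 (ENSG00000197905) was less abundant, with 13.0 to 14.1 RPM in Anillin 4N, 14.7 to 15.8 RPM in Anillin 2N, 13.5 to 14.9 RPM in control 4N and 11.8 to 16.5 RPM in control 2N. Its log2 change was -0.03 at 4N (95% interval -0.23 to 0.17) and 0.08 at 2N (95% interval -0.12 to 0.28), neither past the threshold.

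LATS2, a kinase that phosphorylates YAP1 and WWTR1, was higher after Anillin siRNA. The gene (ENSG00000150457) lies on the minus strand of chromosome 13 at 20973032 to 21061547. It had 38.6, 40.4 and 44.6 RPM in Anillin 4N, 39.0, 41.3 and 47.8 RPM in Anillin 2N, 30.3, 31.7 and 31.2 RPM in control 4N and 37.9, 36.6 and 34.5 RPM in control 2N. The groups did not overlap at either DNA content, though the lowest Anillin 2N library stood only at 39.0 RPM, against 37.9 RPM in the highest control 2N library. LATS2 rose by 0.40 on the log2 scale at 4N (standard error 0.07, adjusted p = 0.000116 by limma), a change of 31.9%, and by 0.23 at 2N (standard error 0.07, adjusted p = 0.0225 by limma), a change of 16.9%. The interaction was 0.17 with a 95% interval of -0.04 to 0.39 (adjusted p = 0.257 by limma). The 2N call was lost with no filter on low values (adjusted p = 0.0683 by limma) and without replicate 3 of Anillin 2N (adjusted p = 0.145 by limma) or of control 2N (adjusted p = 0.0967 by limma).

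LATS1 (ENSG00000131023, chromosome 6, 149658153 to 149718256, minus strand), the paralogue of LATS2, had 29 to 31.0 RPM in Anillin 4N, 28.7 to 31.4 RPM in Anillin 2N, 26.5 to 29.2 RPM in control 4N and 29.5 to 32.1 RPM in control 2N. The groups overlapped at both DNA contents. Its log2 change was 0.08 at 4N (95% interval -0.04 to 0.21) and -0.03 at 2N (95% interval -0.16 to 0.10), and neither passed the threshold. Under quantile scaling the 4N value passed it (0.16, adjusted p = 0.0364 by limma). Per exon length, the ratio of LATS2 to LATS1 within a library was 2.06, 2.15 and 2.23 in Anillin 4N, 2.11, 2.04 and 2.46 in Anillin 2N, 1.65, 1.68 and 1.82 in control 4N and 1.99, 1.77 and 1.75 in control 2N. Each Anillin library had a higher ratio than each control library of either fraction.

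The upstream kinases and adaptors changed little. STK4 (ENSG00000101109) had 41.7 to 45.9 RPM in Anillin 4N, 43.1 to 46.7 RPM in Anillin 2N, 43.4 to 48.3 RPM in control 4N and 40.7 to 41.9 RPM in control 2N, and it passed the threshold in none of the comparisons in the fit described, though it was higher in control 4N than in control 2N under median-of-ratios scaling (0.15, adjusted p = 0.0432 by limma) and without replicate 2 of control 4N (0.17, adjusted p = 0.0456 by limma). STK3 (ENSG00000104375) had 20.1 to 20.7 RPM in Anillin 4N, 20.5 to 22.9 RPM in Anillin 2N, 21.6 to 24.4 RPM in control 4N and 22.9 to 25.7 RPM in control 2N. It was just past the threshold at 4N, where it fell by 0.17 (standard error 0.07, adjusted p = 0.0485 by limma), a call that was lost in 9 of 12 other settings, among them the fits without any 1 Anillin 4N library and without replicate 1 or 2 of control 4N. Over the 12 settings its adjusted p by limma ran from 0.0334 to 0.296. At 2N the STK3 change was -0.11 (95% interval -0.25 to 0.03).

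SAV1 (ENSG00000151748), which holds the MST kinases together, had 28.8, 31.3 and 31.3 RPM in Anillin 4N, 28.8, 29.9 and 27.9 RPM in Anillin 2N, 26.0, 28.0 and 25.0 RPM in control 4N and 25.2, 27.7 and 27.1 RPM in control 2N. The groups did not overlap at either DNA content, though at 2N the lowest Anillin library stood at 27.9 RPM and the highest control library at 27.7 RPM. SAV1 rose by 0.21 at 4N (standard error 0.06, adjusted p = 0.00983 by limma), a change of 15.4%, which was lost without replicate 3 of control 4N (0.17, adjusted p = 0.0559 by limma). At 2N its change was 0.11 (95% interval -0.02 to 0.25, adjusted p = 0.195 by limma). ATL1, which overlaps SAV1 on the opposite strand, averaged 1.0 RPM (1.18 RPM in Anillin 4N and 0.727 RPM in control 4N), and overlapping transcripts of the other members were each at a mean below that; how strand was used in counting is not given in the sources used here. NF2 (ENSG00000186575) had 57.1 to 63.2 RPM in Anillin 4N, 57.4 to 60.0 RPM in Anillin 2N, 55.0 to 63.4 RPM in control 4N and 47.5 to 61.1 RPM in control 2N, and its change was -0.01 at 4N (95% interval -0.18 to 0.15) and 0.08 at 2N (95% interval -0.09 to 0.24).

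Counted together, 5 of the 10 members passed the threshold at 4N, with LATS2 and SAV1 higher and YAP1, TEAD1 and STK3 lower, where 52.6% of all genes tested passed it, 24.5% higher and 28.1% lower. At 2N 4 members passed, LATS2 higher and YAP1, WWTR1 and TEAD1 lower, against 29.7% of all genes, 12.6% higher and 17.0% lower. Libraries of the 2 groups did not overlap for 5 members at 4N, where 59.8% of all genes did not overlap, and for 6 members at 2N, against 40.3%. The share of members called at 4N was therefore near the background. The median absolute log2 change of the members was 0.12 at 4N and 0.11 at 2N, beside 0.24 and 0.15 for all genes. After YAP1 the largest log2 change was the 0.40 of LATS2 at 4N, and the other 8 members lay between -0.24 and 0.21 in both comparisons.

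**Figure D2:**
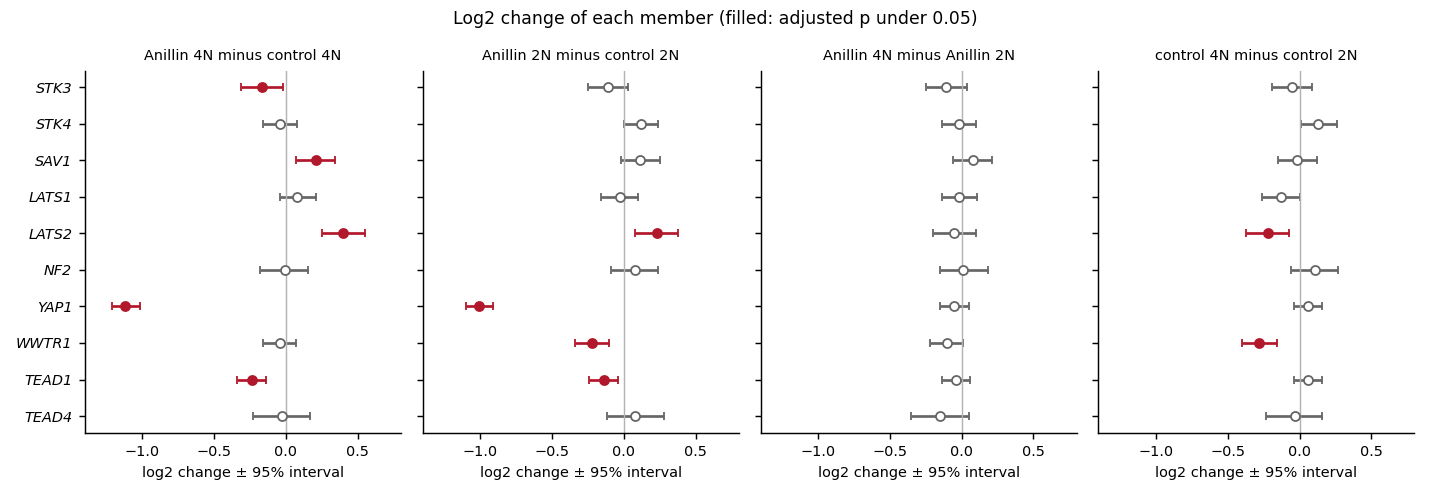
Log2 change of the 10 genes (rows) with its 95% interval in 4 comparisons (panels); filled red points passed an adjusted p of 0.05 by limma over 19591 genes and open points did not. YAP1 is at -1.12 and -1.01 in the 2 panels that set Anillin against control siRNA, and no member passed in the panel that sets Anillin 4N against Anillin 2N.

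Between the 2 fractions of Anillin cultures no member passed the threshold, where 5.57% of all genes did. None of the 10 members reached an unadjusted p of 0.05 by limma, a count of 0, and limma-voom on whole reads also called 0. The changes of Anillin 4N over Anillin 2N were -0.05 for YAP1 (95% interval -0.15 to 0.05), -0.10 for WWTR1 (95% interval -0.22 to 0.01), -0.05 for LATS2 (95% interval -0.20 to 0.10) and -0.15 for TEAD4 (95% interval -0.35 to 0.05). Libraries of the 2 groups did not overlap for 2 members, WWTR1 and TEAD4, both lower at 4N, against 24.3% of all genes. The median absolute log2 change of the members was 0.05, beside 0.09 for all genes.

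Between the 2 fractions of control cultures 2 members passed the threshold, both lower at 4N, where 40.8% of all genes passed it, 21.3% higher and 19.5% lower. WWTR1 fell by 0.28 on the log2 scale in control 4N (standard error 0.06, adjusted p = 0.00057 by limma), a change of -17.7%. LATS2 fell by 0.22 (standard error 0.07, adjusted p = 0.0183 by limma), a change of -14.3%, and lost this call with no filter (adjusted p = 0.0557 by limma) and without replicate 1 of control 4N (adjusted p = 0.0647 by limma) or of control 2N (adjusted p = 0.0671 by limma). Other settings added STK4, higher in control 4N, as given above, and LATS1, lower in control 4N under quantile scaling (-0.21, adjusted p = 0.0142 by limma). Libraries did not overlap for 5 members, against 50.8% of all genes. This comparison shares the control 4N libraries with the comparison of Anillin 4N and control 4N, so for LATS2, which was lowest in control 4N, the 2 comparisons are not independent. It also shares the control 2N libraries with the comparison of Anillin 2N and control 2N. WWTR1 was highest in control 2N, so its falls between the control fractions and at 2N are likewise not independent.

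The interaction, the change at 4N minus the change at 2N, passed the threshold for 0 of the 10 members, where 18.5% of all genes passed it by limma, 7.94% with a positive and 10.6% with a negative value. WWTR1 alone had an unadjusted p under 0.05 by limma, 1 member in all, and limma-voom called 0. The members' interactions ranged from -0.15 for STK4 (95% interval -0.32 to 0.02) to 0.18 for WWTR1.

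Per kilobase of merged exons, YAP1 had the highest mean over the 12 libraries, with an exonic RPKM of 25.9 (RPM per kilobase of merged exons), followed by TEAD1 at 23.5, WWTR1 at 16.3, NF2 at 8.15, LATS2 at 6.78, TEAD4 at 6.31, SAV1 at 4.99, STK4 at 4.84, LATS1 at 3.43 and STK3 at 1.77 on the same scale. Over the 12 libraries YAP1 ranged from 16.0 to 36.0, a range that contained all of TEAD1 (21.0 to 25.9) and overlapped WWTR1 (14.6 to 19.9). NF2, LATS2, TEAD4, SAV1 and STK4 each overlapped their neighbours in this order among these 5. TEAD1 did not overlap WWTR1, nor WWTR1 overlap NF2, and LATS1 and STK3 stood clear below the rest. Reads that lie in introns may be counted in these levels, since the authors' lengths are gene spans, so differences in level between genes are less certain than differences between groups.

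The place of YAP1 in this order differed between the siRNAs. Per exon length, the ratio of YAP1 to WWTR1 within a library was 1.17, 1.10 and 1.05 in Anillin 4N, 1.09, 1.07 and 1.02 in Anillin 2N, 2.46, 2.16 and 2.37 in control 4N and 1.91, 1.8 and 1.8 in control 2N. The ratio of YAP1 to TEAD1 was 0.733 to 0.785 in Anillin 4N, 0.733 to 0.805 in Anillin 2N, 1.37 to 1.43 in control 4N and 1.35 to 1.44 in control 2N. YAP1 thus had fewer reads per exon length than TEAD1 in all 6 Anillin libraries and more in all 6 control libraries. The ratio of TEAD1 to TEAD4 was 3.50 to 3.70 in Anillin 4N, 3.13 to 3.52 in Anillin 2N, 3.95 to 4.29 in control 4N and 3.38 to 4.79 in control 2N. The ratio of STK4 to STK3 overlapped between the siRNAs at 4N, at 2.88 to 3.11 in Anillin 4N and 2.53 to 3.10 in control 4N, and did not at 2N, at 2.64 to 3.02 in Anillin 2N and 2.20 to 2.54 in control 2N.

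**Figure D3:**
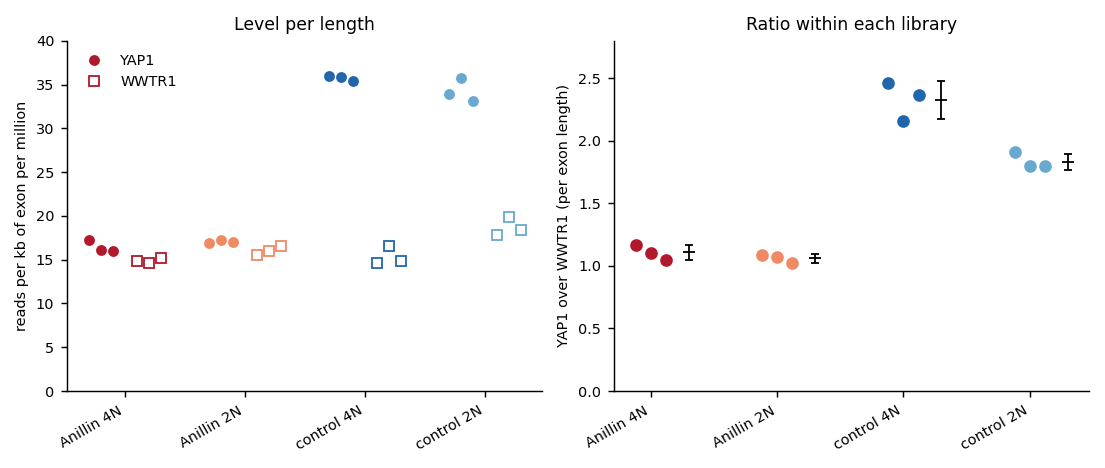
Left, YAP1 (filled circles) and WWTR1 (open squares) in exonic RPKM in each library of the 4 groups; right, the ratio of YAP1 to WWTR1 within each library, with the mean ± SD of 3 libraries. The ratio is 1.02 to 1.17 in the Anillin libraries and 1.8 to 2.46 in the control libraries.

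**Figure D4:**
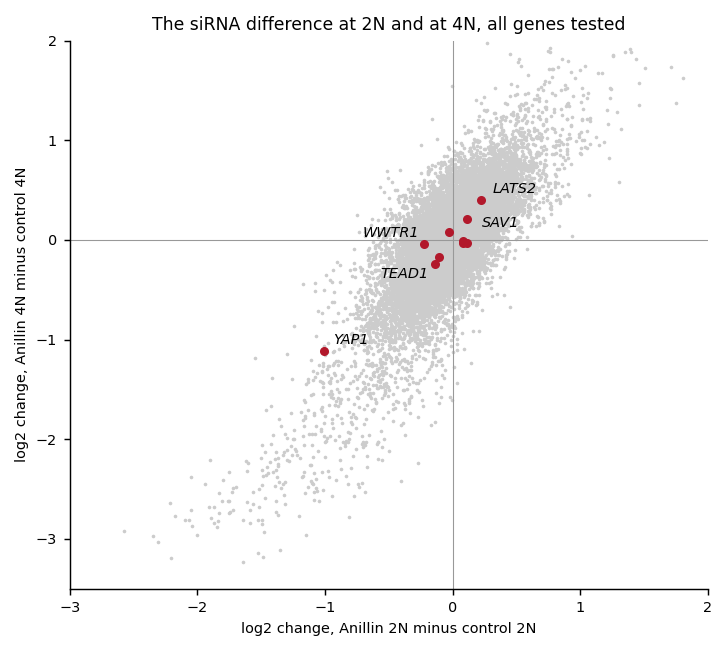
Log2 change after Anillin siRNA at 2N (horizontal) against that at 4N (vertical) for the genes tested in grey, with the 10 members in red and 5 of them named; 5 of 19591 genes lie outside the axes. YAP1, at -1.01 and -1.12, lies away from the other members, whose largest change is the 0.40 of LATS2 at 4N.

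The genes most like each member over the 12 libraries were found by Pearson's r of log2 level among 11205 protein-coding genes, as a description of libraries that share 4 groups and their depth. For YAP1 they were CREBL2 (r = 0.997), which encodes a CREB-like leucine zipper protein, and UHMK1 (r = 0.996), which encodes a kinase. CREBL2 averaged 25.1 RPM in Anillin 4N, 26.9 RPM in Anillin 2N, 55.2 RPM in control 4N and 53.8 RPM in control 2N. UHMK1 averaged 67.8 RPM in Anillin 4N, 77.6 RPM in Anillin 2N, 171 RPM in control 4N and 159 RPM in control 2N. Both were lower after Anillin siRNA in each fraction, past the threshold by limma. For LATS2 they were MFSD1 (r = 0.974), a lysosomal membrane protein, and ENTPD4 (r = 0.967), a nucleotidase of the Golgi. WWTR1 was most like RBPJ (r = 0.971), the DNA-binding factor of Notch signalling, and ZFP28 (r = 0.969), and TEAD1 was most like LAG3 (r = 0.984) and TGOLN2 (r = 0.981). SAV1 was most like BTN3A2 (r = 0.927) and FCHO2 (r = 0.922), STK3 like DCAF6 (r = 0.913) and BLOC1S6 (r = 0.877), and NF2 like ELOB and PMPCA (r = 0.904 each). For STK4 they were ALKBH1 (r = 0.837) and MARK2 (r = 0.826), for LATS1 ARID4A (r = 0.897) and an unnamed gene, ENSG00000267360 (r = 0.905), and for TEAD4 ERCC2 (r = 0.868) and SLC25A25 (r = 0.797).

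Among other regulators of the kinase cascade, FRMD6 fell after Anillin siRNA at both DNA contents, RASSF1 fell at 4N, and kinases of the MAP4K group changed in both directions. Of 24 tested genes of this list, at 4N 7 were higher after Anillin siRNA and 11 lower, and at 2N 4 were higher and 9 lower. In all, 75.0% of the list passed the threshold at 4N and 54.2% at 2N, beside 52.6% and 29.7% of all genes tested. Their median log2 change was -0.07 at 4N and -0.08 at 2N, beside 0.00 and -0.02 for all genes. FRMD6, a FERM-domain protein placed upstream of the kinases, had 96.6, 97.1 and 113 RPM in Anillin 4N, 99.6, 106 and 127 RPM in Anillin 2N, 185, 185 and 187 RPM in control 4N and 278, 255 and 255 RPM in control 2N. Its Anillin libraries were all below its control libraries, and it fell by 0.86 at 4N (adjusted p = 1.61e-08 by limma) and by 1.25 at 2N (adjusted p = 9.24e-10 by limma). RASSF1, a scaffold that binds the MST kinases, had 10.7, 11.4 and 11.7 RPM in Anillin 4N, 9.43, 11.3 and 10.7 RPM in Anillin 2N, 23.8, 20.7 and 21.7 RPM in control 4N and 13.0, 11.1 and 12.5 RPM in control 2N. RASSF1 was thus high in control 4N alone, and fell by 0.94 in Anillin 4N against control 4N (adjusted p = 3.04e-08 by limma). TNIK and MINK1, kinases of the MAP4K group that can phosphorylate LATS kinases, rose by 0.65 and 0.60 at 4N and by 0.33 and 0.35 at 2N, each past the threshold by limma. MAP4K2, of the same group, rose by 0.45 at 4N (adjusted p = 0.000127 by limma) and by 0.36 at 2N (adjusted p = 0.00223 by limma). MAP4K4, also of this group, fell by 0.60 at 4N (adjusted p = 2.25e-09 by limma) and by 0.27 at 2N (adjusted p = 0.000132 by limma). At 2N MAP4K3 fell by 0.18 (adjusted p = 0.0171 by limma) and MAP4K5 by 0.15 (adjusted p = 0.0151 by limma). Both calls were lost without replicate 2 of Anillin 2N, that of MAP4K3 also without replicate 2 of control 2N, and that of MAP4K5 also without replicate 3 of control 2N and under quantile scaling. MAP4K3, MAP4K4 and MAP4K5 were named after their values were seen.

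Inhibitors of the kinases include the STRIPAK phosphatase complex, which dephosphorylates the MST kinases, and the Ajuba family, which restrains LATS kinases. Of 16 such genes tested, 4 were higher and 6 lower at 4N, and 3 were higher and 5 lower at 2N, with medians of -0.01 and -0.02. Thus 10 of the 16 passed the threshold at 4N and 8 at 2N, beside 52.6% and 29.7% of all genes tested. The STRIPAK scaffold STRIP2 had 79.3 to 86.0 RPM in Anillin 4N, 70.0 to 73.4 RPM in Anillin 2N, 56.4 to 59.3 RPM in control 4N and 42.8 to 46.5 RPM in control 2N. It rose by 0.52 at 4N (adjusted p = 9.29e-08 by limma) and by 0.68 at 2N (adjusted p = 1.56e-08 by limma). Its partner CTTNBP2NL fell by 0.50 at 4N and by 0.68 at 2N, and PPP2CA, a catalytic subunit of the phosphatase, fell by 0.60 at 4N, all past the threshold by limma. PPP2CA had 134 to 138 RPM in Anillin 4N and 203 to 210 RPM in control 4N. At 2N it had 126 to 133 RPM in Anillin 2N and 134 to 149 RPM in control 2N. PPP2CA was thus high in control 4N alone. WTIP rose by 0.40 at 4N, and at 2N AJUBA fell by 0.33, each past the threshold by limma. WTIP had 12.5 to 14.4 RPM in Anillin 4N and 9.52 to 10.7 RPM in control 4N. At 2N it had 14.2 to 15.1 RPM in Anillin 2N and 12.4 to 13.7 RPM in control 2N, so control 4N was the lowest group.

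Of 13 tested partners of YAP1, WWTR1 and the TEAD factors, 4 were higher and 5 lower at 4N, and 4 were higher and 2 lower at 2N, with medians of 0.04 and -0.09. In all, 69.2% of them passed the threshold at 4N and 46.2% at 2N, beside 52.6% and 29.7% of all genes tested. The other two TEAD genes went the other way from TEAD1. TEAD2 had 61.7, 60.0 and 56.2 RPM in Anillin 4N, 64.8, 61.9 and 61.2 RPM in Anillin 2N, 43.8, 45.6 and 42.9 RPM in control 4N and 41.3, 41.6 and 41.0 RPM in control 2N. TEAD3 had 84.1, 84.3 and 87.5 RPM in Anillin 4N, 83.7, 80.8 and 86.8 RPM in Anillin 2N, 51.5, 53.5 and 55.1 RPM in control 4N and 67.4, 64.0 and 69.7 RPM in control 2N. For TEAD2 and TEAD3 every Anillin library was above every control library. TEAD2 rose by 0.42 at 4N (adjusted p = 1.42e-06 by limma) and by 0.59 at 2N (adjusted p = 9.9e-08 by limma), and TEAD3 rose by 0.67 at 4N (adjusted p = 2.32e-09 by limma) and by 0.32 at 2N (adjusted p = 8.84e-05 by limma). VGLL3, a cofactor that binds TEAD factors, fell by 0.53 at 4N, and AMOTL2, an angiomotin that binds YAP1 and is also a YAP1 target, fell by 0.43 at 4N and by 0.56 at 2N, each past the threshold by limma. At 2N VGLL3 had 76.0 to 92.5 RPM in Anillin 2N and 100 to 111 RPM in control 2N. BTRC, a ubiquitin ligase subunit that recognises phosphorylated YAP1, rose by 0.30 at 2N (adjusted p = 0.000581 by limma). At 4N BTRC was also higher, with 51.1 to 51.7 RPM in Anillin 4N and 36.8 to 40.5 RPM in control 4N.

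Genes that YAP1 or WWTR1 with TEAD factors are known to activate moved in both directions after Anillin siRNA at 4N. At 2N more of them were lower than higher. Of 21 tested, 7 were higher and 6 lower at 4N, and 2 were higher and 8 lower at 2N, with medians of 0.00 and -0.07. In all, 61.9% of them passed the threshold at 4N and 47.6% at 2N, beside 52.6% and 29.7% of all genes tested. By direction, 24.5% of all genes were higher and 28.1% lower at 4N, and 12.6% higher and 17.0% lower at 2N. ANKRD1, a standard readout of YAP1 activity, had 308, 373 and 385 RPM in Anillin 4N, 516, 613 and 597 RPM in Anillin 2N, 440, 531 and 440 RPM in control 4N and 1090, 1140 and 1120 RPM in control 2N. It fell by 0.40 at 4N (adjusted p = 0.000551 by limma) and by 0.96 at 2N (adjusted p = 1.24e-07 by limma). CCN2, a secreted matrix protein and another standard readout, had 452, 477 and 497 RPM in Anillin 4N, 689, 747 and 807 RPM in Anillin 2N, 356, 375 and 361 RPM in control 4N and 760, 814 and 527 RPM in control 2N. It rose by 0.39 at 4N (adjusted p = 0.00536 by limma) and its change at 2N was 0.12 (adjusted p = 0.464 by limma), where the control 2N libraries lay far apart. CCN1, the relative of CCN2 and named after its values were seen, rose by 0.37 at 4N (adjusted p = 0.000468 by limma), with a change of 0.04 at 2N (adjusted p = 0.731 by limma). At 4N F3, which encodes tissue factor, rose by 0.47 and IGFBP3 fell by 0.45, and at 2N ASAP1 fell by 0.43, each past the threshold by limma. At 4N ASAP1 was also lower, with 172 to 176 RPM in Anillin 4N and 203 to 212 RPM in control 4N. FJX1 rose by 0.36 at 2N (adjusted p = 0.0465 by limma), a call that held in 6 of 13 other settings.

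In control cultures 15 of these 21 target genes were lower and 1 higher in control 4N than in control 2N, a median log2 change of -0.31. Of all genes, 19.5% were lower and 21.3% higher in that comparison. ANKRD1 fell by 1.25, CCN2 by 0.92, TGFB2 by 0.83 and F3 by 0.80 in control 4N, each past the threshold by limma. In Anillin cultures, comparing 4N with 2N, 6 of the 21 were lower and 0 higher, where 2.19% of all genes were lower and 3.38% higher, and the largest falls past the threshold were 0.70 for ANKRD1, 0.65 for CCN2, 0.56 for TGFB2 and 0.49 for IGFBP3. YAP1 did not pass the threshold in either of these comparisons, and WWTR1 passed it in the control one. Between fractions the other lists had 4 higher and 8 lower of 24 regulators, 5 higher and 2 lower of 16 inhibitors and 0 higher and 5 lower of 13 partners in control 4N over control 2N. In Anillin 4N over Anillin 2N these were 1 higher and 3 lower, 1 higher and 0 lower, and 0 higher and 1 lower. SCRIB, a polarity scaffold, rose by 0.68 in Anillin 4N over Anillin 2N and by 0.50 in control 4N over control 2N, and STK38L, a kinase related to LATS1 and LATS2, fell by 0.30 and by 0.89 in these comparisons, all past the threshold by limma.

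**Figure D5:**
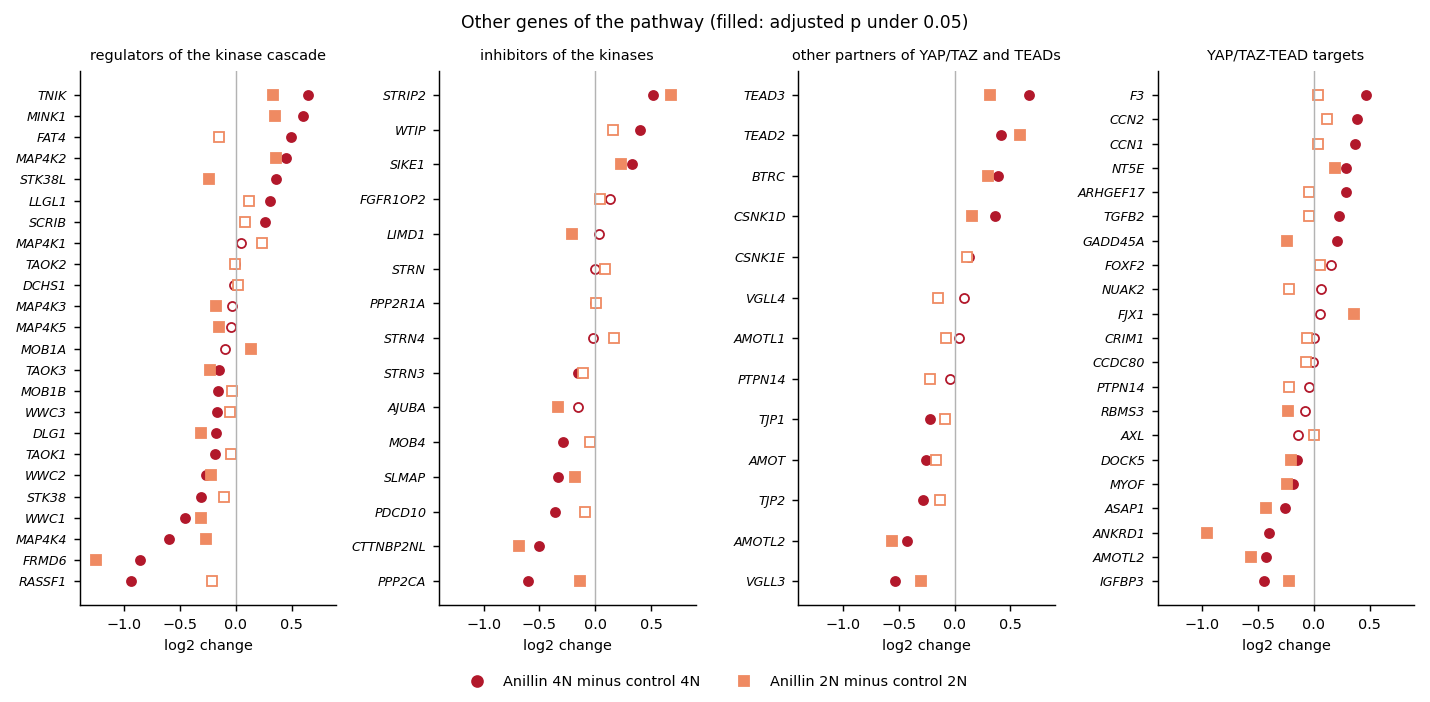
Log2 change after Anillin siRNA at 4N (circles) and at 2N (squares) for other tested genes of the pathway in 4 lists; filled marks passed an adjusted p of 0.05 by limma and open marks did not, and AMOTL2 and PTPN14 stand in 2 lists; 1 gene of the kinase inhibitors is not drawn. FRMD6 is lowest at 2N, at -1.25. Of the 21 targets 7 were higher and 6 lower at 4N, where 24.5% of all genes were higher and 28.1% lower.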

How the data were processed

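RPE1 RNA was sequenced from ribosomal-RNA-depleted total RNA per the labels, whose protocol also names an mRNA kit. CASAVA 1.8.2, TopHat2, edgeR and build hg19 are named in the submitters' processing notes. The deposited table holds RPKM values, which the authors normalized per library, with no read counts. Read against GENCODE 29, its low values are whole multiples of the RPKM that 1 read gives over the gene span, so lengths and whole reads could be recovered for all 38571 genes above 0 (tolerance 0.01 read; 29239 lengths equal the annotated span, and 9332 came from a common divisor). RPKM times length gave RPM, reads scaled to a library of 1000000, on which the per-library scaling of the authors (0.951 to 1.039) was kept. With such lengths a fixed RPKM minimum depends on gene span as well as on reads. It dropped LATS2, STK3, STK4 and TEAD4 and kept the other members.

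Genes with at least 0.5 RPM in at least 3 libraries (19591) were tested as log2(RPM + 0.5) with limma 3.58.1 in R 4.3.3, trend on, 1 mean per group over the 12 libraries, two-sided, with Benjamini-Hochberg adjustment over all genes and a threshold of 0.05. Fold changes on this scale understate those of low genes. The fit was tested on simulated data. Alternatives were a pseudocount of 0.1 RPM, no filter, RPKM, quantile and median-of-ratios scaling, limma-voom on recovered reads (at least 10 in at least 3 libraries), the compared groups alone, and each library left out. Tables were made with Python 3.11.15.

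Named genes are the members, ANLN, overlapping genes, up to 4 genes per list and comparison with the largest change past the threshold, and the 2 genes most like each member among those with a mean of at least 5 RPM. The value of 1 gene named by this rule is not reported here, though the counts of its list include it. The members and lists were chosen with earlier results of these data known. Intervals are from the fit over libraries. p-values measure the spread between replicates that the submitters call biological. Coordinates are on GRCh38 and were not used to read the table.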

Additional observations from a re-analysis of the deposited data

Results flagged for a closer look

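For the 31 genes below, the change after Anillin siRNA differed between 4N and 2N cells, tested as the interaction of siRNA and DNA content by limma at an adjusted p of 0.05; 18.5% of all genes tested passed this test, and none of the 10 Hippo members did. The values that follow are the log2 change at 4N minus that at 2N.

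Of the kinase cascade regulators, FAT4, an atypical cadherin, had 0.64, STK38L had 0.60, FRMD6 had 0.38, TNIK had 0.33, MINK1 had 0.24, MAP4K4 had -0.32 and RASSF1 had -0.73. FRMD6 was lower after Anillin siRNA in both fractions and more so at 2N. RASSF1 was high in control 4N alone. Of the STRIPAK genes, PPP2CA had -0.46, PDCD10 had -0.27 and MOB4 had -0.24. TEAD3 had 0.35, being higher after Anillin siRNA in both fractions and more so at 4N. Of the YAP1 targets, ANKRD1 had 0.56, GADD45A had 0.45, F3 had 0.43, ARHGEF17 had 0.33 and CCN1 had 0.33. The siRNA target ANLN had -1.85. The G2 and M phase genes CDK1, AURKA, TOP2A, PLK1, CENPF, CDC20 and MKI67 had -1.70, -1.62, -1.59, -1.35, -0.87, -0.81 and -0.60. Of the other genes that fell as far as YAP1, NCAPD2 had -0.79, TUBA1B had -0.70 and CAV1 had -0.25. Of the genes most like a member, LAG3 had -0.83, UHMK1 had -0.30, TGOLN2 had -0.28 and ENSG00000267360 had 0.38.

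Several of these calls were lost in other settings. The calls of MOB4, PDCD10 and CCN1 held in only 7 of 18 settings each, that of TGOLN2 in 9 of 18 and that of ENSG00000267360 in 9 of 17. For each of these 5 genes leaving out any of 5 or more single libraries ended the call. MINK1 was lost without replicate 2 or 3 of Anillin 4N, replicate 2 of Anillin 2N, replicate 1 of control 4N or replicate 3 of control 2N. CAV1 was lost without replicate 2 of Anillin 4N or replicate 1 of control 4N, LAG3 without replicate 2 of Anillin 4N or replicate 3 of Anillin 2N, and both with no filter on low values. LAG3 and F3 were lost on the RPKM scale, F3 and FRMD6 with no filter, and UHMK1 under quantile scaling. Whether the cell cycle stage of the sorted cells accounts for any of these was not tested.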

How the results depend on the processing

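YAP1 stayed past the threshold in all 13 other settings at 4N (-1.15 to -0.80) and at 2N (-1.03 to -0.72), and WWTR1 did so at 2N. On log2(RPKM + 0.5) with an RPKM minimum, which leaves 6 of the 10 members and 12892 genes, 3 members were called at 4N and 1 between the control fractions, and calls over all genes were 6638 at 4N (10312 on the RPM scale), 3682 at 2N (5814), 461 between the Anillin fractions (1092), 4782 between the control fractions (8000) and 2019 for the interaction (3631); fewer genes were tested. With no filter, 687 genes were called between the Anillin fractions and 1 member between the control fractions. Quantile scaling called 1 member for the interaction, WWTR1. Leaving out each library gave 2 to 4 members at 2N (2 without control 2N replicate 3), 1 to 3 between the control fractions, 0 to 1 for the interaction, and 607 to 890 genes between the Anillin fractions. Values near 0 that passed no test changed sign, and the cause was not tested. Under quantile scaling these were, at 4N, STK4 0.05, NF2 0.10, WWTR1 0.11 and TEAD4 0.01, between the control fractions YAP1 -0.05 and TEAD1 -0.05, between the Anillin fractions NF2 0.00, and for the interaction TEAD1 0.03. With libraries left out the ranges at 4N were STK4 -0.07 to 0.01, NF2 -0.08 to 0.03, TEAD4 -0.05 to 0.01 and WWTR1 -0.08 to 0.01. At 2N they were LATS1 -0.06 to 0.00, NF2 -0.03 to 0.15, TEAD4 -0.05 to 0.18, CCN1 -0.07 to 0.13 and CCN2 -0.08 to 0.24. Between the Anillin fractions they were LATS1 -0.05 to 0.02, LATS2 -0.11 to 0.03, NF2 -0.03 to 0.04 and STK4 -0.04 to 0.03. Between the control fractions they were NF2 0.00 to 0.18, SAV1 -0.06 to 0.02, STK3 -0.09 to 0.00 and TEAD4 -0.17 to 0.06. For the interaction they were NF2 -0.16 to 0.02 and TEAD4 -0.21 to 0.02. Without control 2N replicate 2, 3 members were called at 2N and 2 between the control fractions. No paired analysis was possible because the labels number every sample separately, so groups share no replicate number. Reads per member ran from 235 to 15543 per library, and TEAD4, with the fewest, had the widest intervals.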
